A study of Drosophila melanogaster with 12 samples.

Results

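The genes described here are the nuclear tRNA genes of Drosophila melanogaster as they stand in the transcription unit annotation of a nascent-transcript study. A transcription unit in that annotation is 1 stretch of 1 strand that carries the symbol of 1 gene or of several genes whose spans were merged. Every symbol beginning with tRNA was taken, except the 22 on the mitochondrial genome. That gave 297 nuclear tRNA genes of 17660 genes named in nuclear units, lying in 279 of 15960 nuclear units. Of the 279 units, 236 named a single tRNA gene and 43 also named other genes.

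The study mapped nascent RNA held by RNA polymerase II (mNET-seq) in S2 cells, a Drosophila line that the labels give as male. Its 6 groups were MSL1 RNAi for 2 days, MOF RNAi for 4 days and control RNAi for 2 days (labelled GST), each with total polymerase II or with polymerase phosphorylated on Ser5 of its C-terminal domain, with 2 libraries a group and 12 in all. MSL1 and MOF are subunits of the complex that raises transcription of the single X chromosome of male flies, so the share of tRNA genes on X is given below. No library value was analysed here, so no level, depth, replicate error or RNAi effect is given, and no comparison below carries a test. The label was checked against the RefSeq gene table of the same assembly (Release 6): 293 of the 297 genes were found by symbol and 2 by an older symbol (tRNA:Tyr-GTA-3-1 and tRNA:Glu-CTC-4-1). Of 234 single-gene units with a RefSeq match, 233 had exactly the RefSeq start and end, and tRNA:Lys-TTT-2-5 did not. All coordinates are in dm6, counted from 1.

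A tRNA carries 1 amino acid, its isotype, to the ribosome and reads mRNA codons through 3 bases, the anticodon. Its genes are transcribed by RNA polymerase III, as a rule from promoter elements inside the gene, whereas the libraries of this study were made from RNA polymerase II. Where a tRNA gene lies inside a protein-coding gene, position alone does not assign a read to the one or the other. In a symbol such as tRNA:Arg-TCG-2-1 the amino acid comes first and the anticodon, in DNA letters, second. By the naming convention of tRNA genes, the next number stands for 1 mature tRNA sequence and the last for the gene copy. That convention was not checked, because no sequence was used here.

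Every standard amino acid had nuclear tRNA genes. With initiator methionine (iMet), which starts translation, and selenocysteine (SeC), which is inserted at certain stop codons, the symbols gave 22 isotypes. Arg had the most genes, 26, followed by Leu with 22, Glu with 21, and Gly, Lys and Ser with 20 each. Thr had 18 genes, Ala and Pro 17 each, Val 15, Asp 14, Gln and Ile 12 each, and Asn and Tyr 10 each. The small isotypes were Phe and Trp with 8 each, Cys with 7, and His, Met and iMet with 6 each. SeC had 1 gene, the fewest. Of the 297 genes, 290 carried ordinary symbols and 7 were marked as pseudogenes, with 2 for Glu and 1 each for His, Thr, Lys and Ile. The remaining pseudogene, CR32123:Psi, had no isotype in its symbol and was the shortest at 53 bp.

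**Figure D1:**
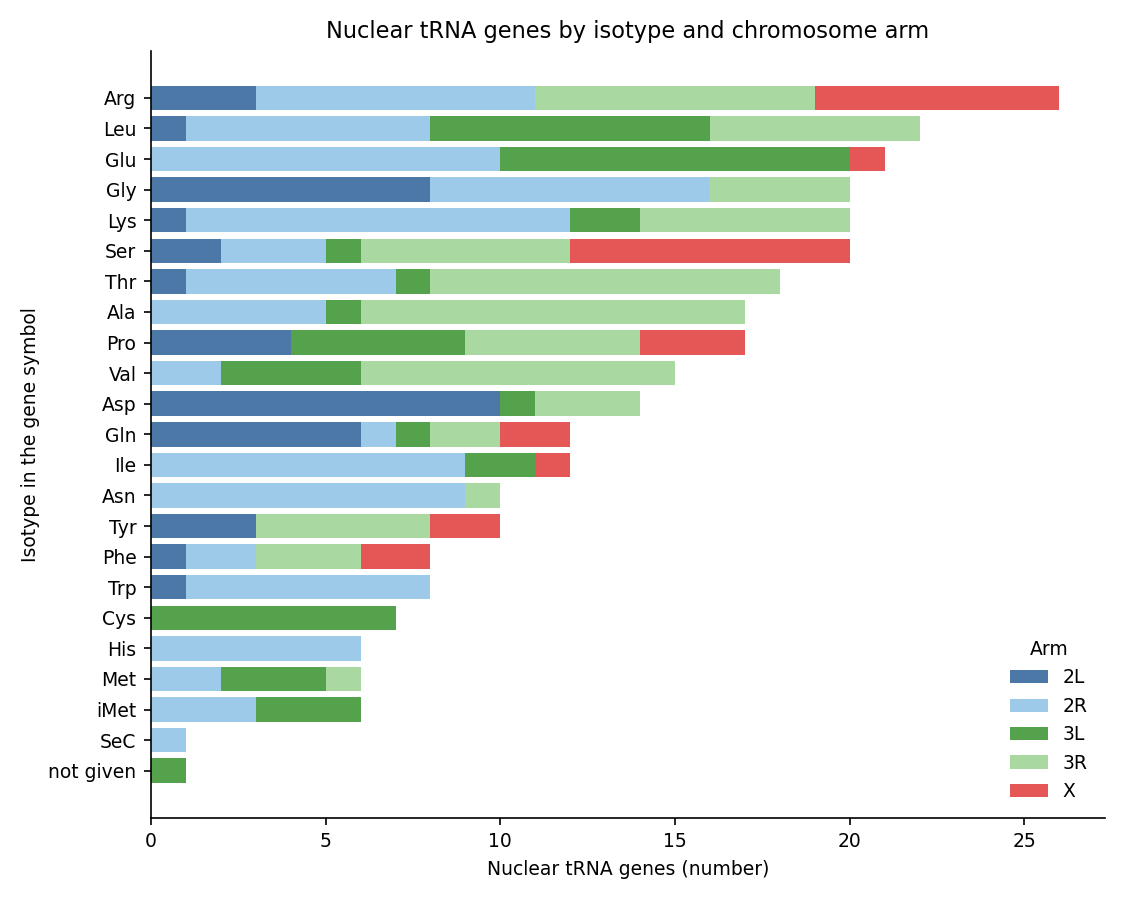
Number of nuclear tRNA genes (x axis) for each isotype (y axis), stacked by chromosome arm. Arg has 26 genes, 7 of them on X; the 7 Cys genes are all on 3L and the 6 His genes all on 2R.

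The genes used 44 distinct anticodons, which made 45 pairs of isotype and anticodon because CAT serves both Met and iMet. For 10 isotypes a single anticodon was present. SeC-TCA was the one pair with 1 gene. An A at the first anticodon base is, as background, usually converted to inosine in the mature tRNA, which widens the codons it can read. Among the 290 genes that are not pseudogenes, 64 genes with 8 anticodons began with A, and for none of the 8 was a gene present whose anticodon differs by a G in place of that A. Another 74 genes with 8 anticodons began with G, 91 with 13 anticodons began with C, and 61 with 15 anticodons began with T.

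By the number after the anticodon, the genes with an isotype in their symbol fell into 92 families of the same named mature sequence, pseudogenes included. Of these families, 46 had 1 gene, pseudogenes among them, while 25 families of 5 genes or more held 188 genes. Gly-GCC-1 and Lys-CTT-1 were the most numerous with 13 genes each, followed by Asp-GTC-1 with 12, Ala-AGC-2 with 11, and Arg-ACG-1 and Asn-GTT-1 with 10 each. Some families stayed on 1 arm: the 9 Glu-CTC-3 genes lay on 3L and the 9 Ile-AAT-1 genes on 2R. Others were spread, as were the 8 Phe-GAA-1 genes over 4 arms.

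The units that held a single tRNA gene had a median length of 73 bp and ranged from 53 to 127 bp. Ser genes measured 82 bp and Leu genes other than Leu-CAA 80 to 84 bp; both tRNAs are known for a long variable arm. The SeC gene measured 87 bp. Genes well above those lengths belonged to the classes known to carry an intron in flies. Leu-CAA genes spanned 121 to 127 bp, the Ile-TAT genes 98 and 100 bp, and Tyr-GTA genes 93 to 186 bp. Within Tyr, 8 genes of the family Tyr-GTA-1 ranged from 93 to 121 bp, Tyr-GTA-2-1 spanned 108 bp, and Tyr-GTA-3-1, inside the unit of Ntl (a neurotransmitter transporter-like gene), spanned 186 bp. Apart from these and CR32123:Psi, genes spanned 71 to 75 bp.

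**Figure D2:**
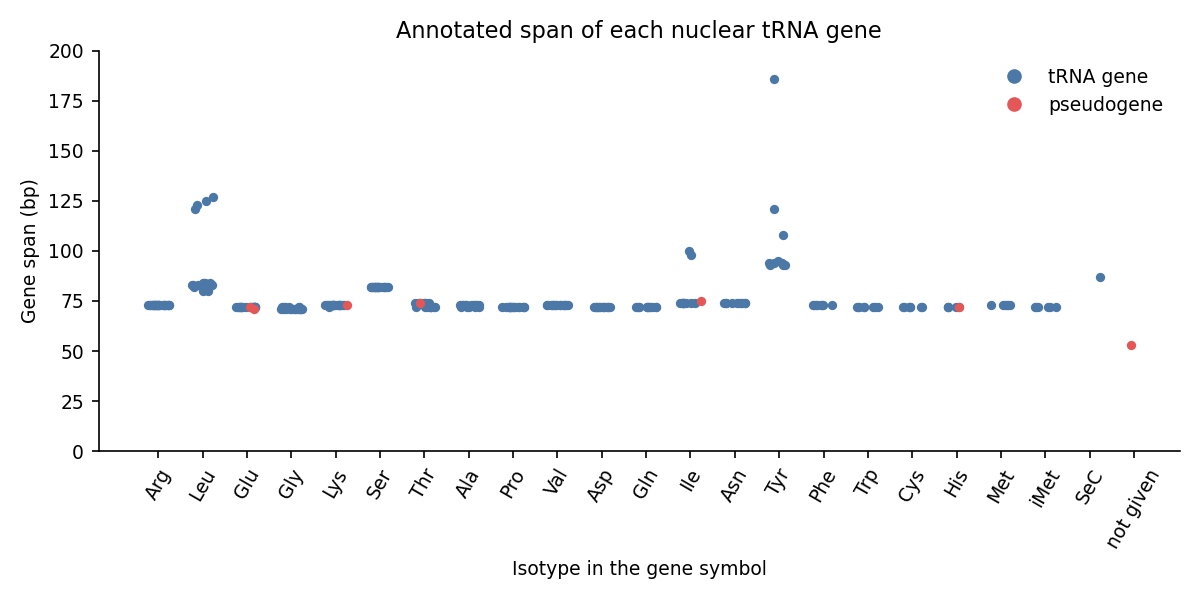
Annotated span in bp (y axis) of each of the 297 nuclear tRNA genes, by isotype in order of gene number (x axis); points are single genes, jittered sideways, with pseudogenes in red. Most genes sit at 71 to 75 bp, with Ser and most Leu near 82 bp and Leu-CAA, Ile-TAT and Tyr genes longer.

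Arm 2R carried 100 tRNA genes, 3R carried 80, 3L 50, 2L 41 and X 26. No nuclear tRNA gene lay on chromosome 4 (109 units) or on Y (112 units). Per megabase of annotated span the density was 4.01 genes on 2R, 2.54 on 3R, 1.79 on 3L, 1.75 on 2L and 1.12 on X, so that 2R was the densest arm and X the sparsest of the 5. X held 8.75% of the tRNA genes (26 of 297; exact 95% binomial interval 5.80 to 12.6%), against 15.1% of the units without a tRNA gene (2374 of 15681). X made up 17.7% of the span of the 5 arms. Such intervals cover counting error only, and genes that lie side by side are not independent draws.

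The isotypes differed in their spread over the arms. Cys lay on 3L alone and His on 2R alone, Asn had 9 of 10 genes on 2R, and Asp had 10 of 14 on 2L. The 26 X genes were 8 Ser, 7 Arg, 3 Pro, and 2 each of Gln, Phe and Tyr, with 1 Glu and 1 Ile pseudogene. No anticodon had all its genes on X. Arg-TCG had 7 of 10 genes there, Ser-CGA 3 of 4, Ser-AGA 5 of 8 and Pro-CGG 3 of 5.

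Of the 15 Ser and Arg genes of X, 14 lay in a stretch of 102997 bp (chrX:14014814-14117810), which was picked out after the positions were seen. It held all 8 Ser genes of X and 6 Arg genes, no tRNA gene of another isotype, and 14 whole units without a tRNA gene. None of its 14 tRNA genes lay inside a longer unit. At its start, 7 plus-strand genes stood within 2471 bp (chrX:14014814-14017284): Arg-TCG-2-1, Ser-CGA-1-1, Ser-CGA-1-2 and then Arg-TCG-3-1 to Arg-TCG-3-4. Elsewhere on X there were 12 tRNA genes, and 11 of them were inside a longer unit.

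Most nuclear tRNA genes lay near another tRNA gene. When genes on either strand separated by at most 5000 bp were joined, 219 of the 297 (73.7%; exact 95% interval 68.3 to 78.7%) fell into 69 clusters and 78 stood alone. Pairs made up 39 of the clusters, 18 clusters had 3 or 4 genes, and 12 had 5 or more, with 83 genes between them. The median cluster spanned 923 bp, with a range of 240 to 13990 bp. On each of the 5 arms most genes were in a cluster, with 80.0% of the 2R genes, 77.5% of the 3R genes, 70.0% of the 3L genes, 63.4% of the 2L genes and 61.5% of the X genes. The share that the same rule would join was not computed for any other set of genes or units. For scale, units without a tRNA gene lay a median of 74 bp from the nearest other such unit.

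Most clusters repeated 1 isotype. A single isotype filled 49 of the 69 clusters, and a single anticodon 47. Among the pairs 32 of 39 held 1 isotype, and among clusters of 3 genes or more 17 of 30 did. None of the 5 clusters with the most genes (7, 7, 8, 11 and 11) was of 1 isotype. Strand was mixed: 25 clusters had all genes on 1 strand and 44 used both.

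The cluster on 2R that reaches into the 5′ part of EcR, the ecdysone receptor gene, had 11 genes over 10225 bp (chr2R:6161535-6171759). It interleaved 3 Arg-ACG-1, 3 Asn-GTT-1, 4 Lys-CTT-1 and 1 Ile-AAT-1 genes on both strands. The cluster on 3R (chr3R:17617761-17631750) also had 11 genes, over 13990 bp, with Val, Pro, Ala and Thr members. Units of 5 other genes lay among its members, including AttD, which encodes an antimicrobial peptide of the attacin family. A further 4 genes, 3 of Ala-AGC-2 and 1 of Pro-TGG-1, followed at chr3R:17645307-17646755. The third cluster by size, on 2R (chr2R:19725620-19729353), held 8 genes over 3734 bp: iMet-CAT-1-1 and iMet-CAT-1-2, then 3 Glu-TTC-1 genes, Glu-CTC-2-1, Glu-CTC-2-2 and a Glu pseudogene.

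The clusters that tied at 7 genes were the X cluster of Arg and Ser given above and a 2R cluster of 2513 bp (chr2R:13430282-13432794) with 5 Ile-AAT-1 genes and both Leu-CAA-2-1 and Leu-CAA-1-1, all in or against the unit of CG42321. Uniform clusters were somewhat smaller. Of the 4 clusters of 6 genes, 2 were of 1 isotype, with Glu-CTC-3-4 to Glu-CTC-3-9 at chr3L:1397695-1401852 on the plus strand and Leu-CAG-1-2 to Leu-CAG-1-7 at chr3L:8060214-8068290 on the minus strand. The 3 clusters of 5 genes were each of 1 isotype, namely Gln, His and Lys. Clusters in which no gene lay inside a longer unit numbered 35 of 69.

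**Figure D3:**
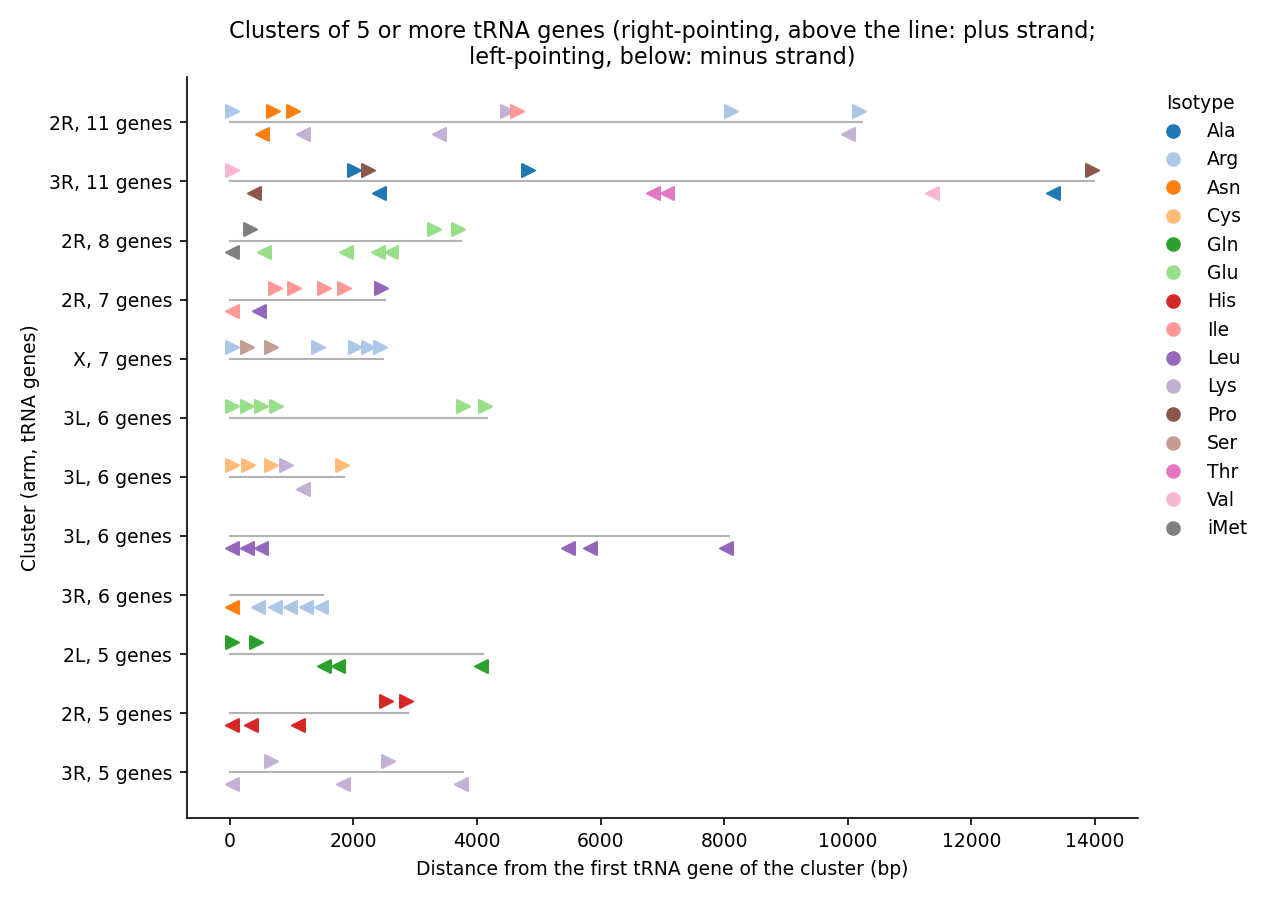
The 12 clusters of 5 or more tRNA genes, 1 per row, with the distance in bp from the first gene of each on the x axis; triangles are genes, pointing right above the line on the plus strand and left below it on the minus strand, coloured by isotype. The 5 upper rows mix isotypes, the 3 lower rows hold 1 isotype each, and both strands are used in most rows.

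Spacing and isotype went together. Neighbouring tRNA genes of known isotype at most 5000 bp apart formed 150 pairs, with a median of 314.5 bp between them and a range of 88 to 4886 bp. In 111 of these pairs (74.0%) both genes had the same isotype, in 107 (71.3%) the same anticodon and in 92 (61.3%) the same named family. Neighbours farther apart formed 140 pairs with a median separation of 313553 bp, and 31 of them (22.1%) shared an isotype. Over all 10431 pairs of tRNA genes on 1 arm, neighbours or not, 835 shared an isotype, close to 8%, and 4.85% a family.

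The 142 neighbouring pairs of the same isotype had a median separation of 469 bp, against 168536.5 bp in the 148 pairs of different isotypes. Same isotype pairs within 500 bp numbered 73, against 23 of different isotypes. The closest neighbours were nonetheless of different isotypes: Asn-GTT-1-6 and Lys-CTT-1-2, 88 bp apart on opposite strands in the EcR cluster. Orientation was close to evenly split. In 84 of the 150 near pairs (56.0%) the genes ran the same way, 34 pairs diverged and 32 converged, and in pairs farther apart 51.4% ran the same way. The isotype was shared in 78.6% of the near pairs running the same way, 67.6% of the divergent and 68.8% of the convergent pairs. The mixed near pairs were most often Ala with Pro (6 pairs), followed by Arg with Ser and Gly with Trp (4 each), and Arg with Lys and Ile with Leu (3 each). In 10 of the 150 near pairs another unit lay between the genes.

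**Figure D4:**
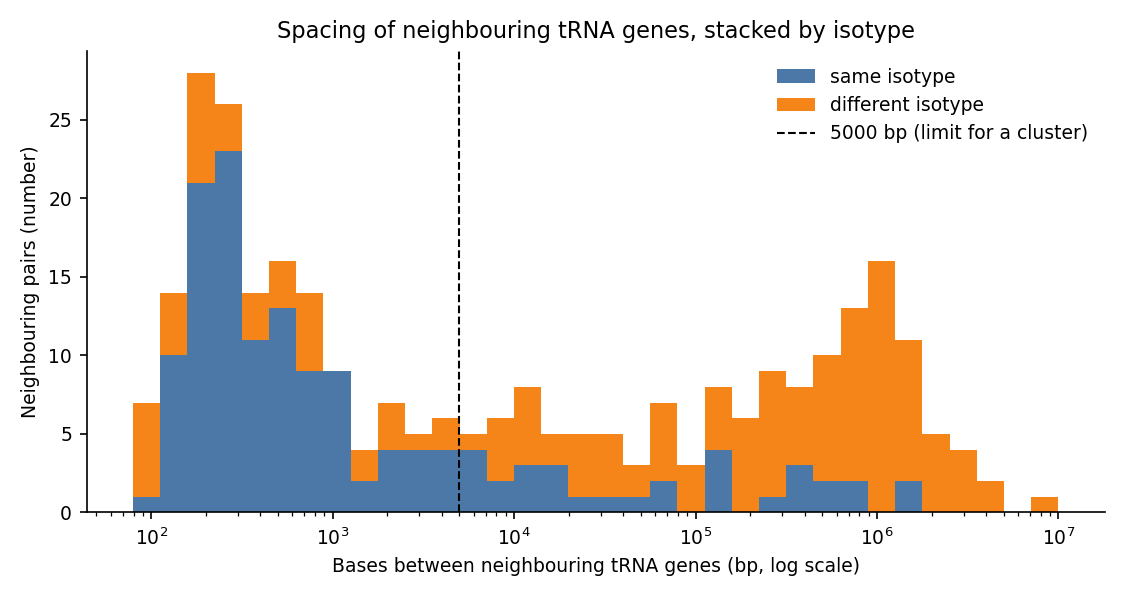
Number of neighbouring tRNA gene pairs (y axis) by the bases between them (x axis, log scale), stacked by whether both genes have the same isotype; the dashed line is the 5000 bp limit used for clusters. Pairs of the same isotype have a median separation of 469 bp, and pairs of different isotypes 168536.5 bp.

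A total of 138 tRNA genes (46.5%) lay inside a longer unit on one strand or the other. For 53 genes (17.8%) the longer unit was on the same strand, for 77 (25.9%) on the other strand, and for 8 (2.69%) on both. The remaining 159 (53.5%) lay in no longer unit. For scale, units that name a gene other than a tRNA covered 36.8% of the bases of the 5 arms on an average strand and 70.0% on either strand. Of the 219 clustered genes 94 (42.9%) were inside a longer unit, and of the 78 lone genes 44 (56.4%) were.

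Isotypes ranged widely in this respect. Of the Asn genes 9 of 10 were inside a longer unit, followed by 85.7% of the Asp and of the Cys genes, and 66.7% of the Glu, Ile and iMet genes each. At the other end stood Arg with 30.8%, Gly with 25.0%, Ser with 10.0% and His with none of its 6 genes. Several of these isotypes sit in a few clusters, so their genes share neighbours and were not independent. By arm the share was 62.0% on 3L, 51.2% on 2L, 49.0% on 2R, 42.3% on X and 32.5% on 3R. Units naming a gene other than a tRNA covered, on either strand, 64.5% of the bases of 3L and 67.9% of 2L and of 2R. They covered 75.6% of X and 74.0% of 3R.

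**Figure D5:**
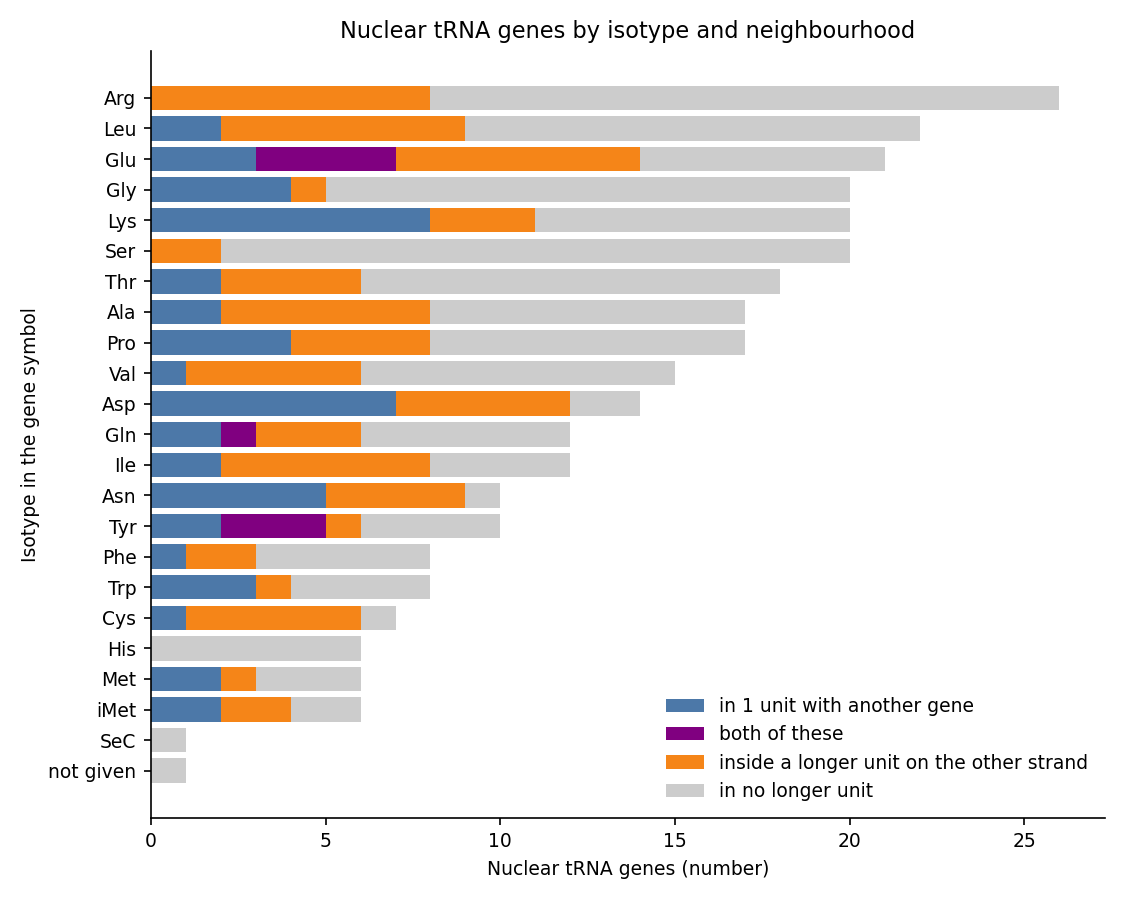
Number of nuclear tRNA genes (x axis) for each isotype (y axis), stacked by whether the gene shares a unit with another gene on its own strand, lies inside a longer unit on the other strand, both, or neither. Asn, Asp and Cys genes are mostly inside a longer unit, and the Ser and His genes mostly or wholly are not.

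Genes that shared a unit with another gene numbered 61 (20.5%; exact 95% interval 16.1 to 25.6%), in 43 units. The same share over all nuclear genes, or over all nuclear units, is not given here. Each of the 43 units named at least 1 protein-coding gene, 33 held 1 tRNA gene, and 10 held several, 28 genes between them. These units had a median length of 17810 bp (1589 to 129895 bp), against 1857 bp for the 15681 units without a tRNA gene. The 43 units each name more than 1 gene, whereas the 15681 include single-gene units, so the medians are not like for like. In 59 of the 61 cases the tRNA gene lay within the RefSeq span of another gene of the unit. For the other 2, Asp-GTC-1-2 in the unit of d and Met-CAT-2-1 in the unit of CG45067 and prominin-like, this was not assessed in full, since d and prominin-like were not matched to the RefSeq table by symbol. Exons were not used here, so whether a tRNA gene lies in an intron is not given.

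The longest of these units was that of Sema1a, a guidance molecule of the nervous system, with 129895 bp (chr2L:8542147-8672041). It held Phe-GAA-1-3 and Asp-GTC-1-6. Next came sm, which encodes an RNA-binding protein (113645 bp, Glu-TTC-1-3), osp (90145 bp, Pro-AGG-1-3), EcR (81215 bp), the X-linked CG32521 (75862 bp, Ile-AAT-2-1Psi) and ome, a dipeptidyl peptidase gene (75030 bp, iMet-CAT-1-5). The unit with the most tRNA genes of its own strand was EcR with 6, followed by mim with 4 Lys-CTT genes, and by p and ru with 3 Tyr and 3 Glu genes. The units of sr, a zinc finger factor of tendon cells, and of ec, CG14322, CG42321 and mrj held 2 each, as did that of Sema1a. The other units held 1 each. Among them were tkv, a receptor for the growth factor Dpp, bs, the fly serum response factor, Pu, a GTP cyclohydrolase of eye pigment synthesis, caps, Lrt, Ptr, Mctp, Dbx, Roc2, hng3, Cht7, Ntl and PIG-S. Esyt2 shared its unit with a U6 snRNA gene as well, itself a gene of RNA polymerase III, and HisRS, which encodes the enzyme that charges tRNA-His, was merged with Bx in a unit on X that held Pro-CGG-2-1. The remaining ones were named for CG12535, CG15765 and CG1718 on X and for CG15431, CG43175, CG10713, CG12831, CG11044, CG9289, CG32320, CG31279 and CG31248 on the autosomes.

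The EcR unit (chr2R:6087873-6169087, minus strand) held 13 tRNA genes counting both strands: 6 Asn, 4 Lys, 2 Arg and 1 Ile. On its own strand were Lys-CTT-1-1, Asn-GTT-1-1, Asn-GTT-1-3, Asn-GTT-1-4, Lys-CTT-1-2 and Lys-CTT-1-3, lying 26643, 16411, 15508, 6991, 6334 and 4139 bp from the start of the unit. The other 7 ran against it, and the nearest to the start was Ile-AAT-1-1 at 2863 bp. So 6 of the 10 annotated Asn genes lay in this single unit.

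Within the shared units, tRNA genes lay a median of 9901 bp from the unit's start, with a range of 499 to 89873 bp. In 5 of the 61 cases the distance was 1000 bp or less, and in none was it 100 bp or less. The shared units had a median length of 17810 bp, and the counts to be expected from unit length were not computed. As a share of the unit's length, the median position was 42.4% from its start.

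On the other strand, 85 tRNA genes (28.6%; exact 95% interval 23.5 to 34.1%) were overlapped by a longer unit, and each of the 85 lay whole inside it. The covering units numbered 49, with a median length of 22307 bp (996 to 149629 bp). Of these, 37 covered 1 tRNA gene and 12 covered several. The unit of Ptp61F, a protein tyrosine phosphatase gene merged there with 4 other genes, was 132765 bp long (chr3L:1342493-1475257) and covered 9 genes, Glu-CTC-3-1 to Glu-CTC-3-9, which is every member of that family. EcR covered 7, CG42321 covered 6 and Cht7, a chitinase gene, covered 5. Units that covered 3 each were those of Ect4 (45024 bp), hts (27872 bp), CG4238, gol and CG8036. A total of 17 units did both, with 25 tRNA genes on their own strand and 33 on the other. The median distance from the start of the covering unit was 7994 bp (248 to 95252 bp), with 8 of 85 genes at 1000 bp or less. Here too, the count to be expected from unit length was not computed.

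Counted by unit, 77 of the 236 units of a single tRNA gene (32.6%; exact 95% interval 26.7 to 39.0%) were overlapped by a longer unit on the other strand, against 22.7% of the 15681 units without a tRNA gene. Whether unit length bears on this comparison was not tested. Among 223 single-gene units of at most 200 bp without a tRNA gene the share was 17.0%, but 100 of those were 5S ribosomal RNA genes, which stand in an array. Without them, a choice made after seeing the data, it was 30.9% of 123 units (exact 95% interval 22.9 to 39.9%). Units covered by the same longer unit are not independent draws, and no test compared these shares. Lying whole inside such a unit was found for 32.6% of the tRNA units, against 10.8% of the units without a tRNA gene and 30.1% of the 123 short units without 5S genes (exact 95% interval 22.1 to 39.0%).

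Of the 6 initiator genes, 2 lay in a unit with another gene, 2 against a longer unit and 2 in neither. iMet-CAT-1-1 and iMet-CAT-1-2 lay in the 2R cluster of 8, in no longer unit. On 3L, iMet-CAT-1-3 lay in the unit of hng3, and iMet-CAT-1-4 and iMet-CAT-1-5 lay against and along the unit of ome. On 2R, iMet-CAT-2-1 lay inside the opposite unit of Mmp2, a matrix metalloproteinase gene. The SeC gene (chr2R:11357564-11357650, minus strand) stood alone and in no longer unit.

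Single-gene tRNA units stood a median of 850 bp from the nearest unit without a tRNA gene (95% interval of the median from order statistics 516 to 1148 bp). Clustered tRNA units can share their nearest unit and are not independent draws, which the interval does not allow for. The median of 850 bp leaves out the units that hold a tRNA gene and another gene. With them counted as neighbours the median was 268 bp. To the nearest other unit without a tRNA gene, the median was 51 bp for the 123 short units without 5S genes, 231 bp for the 100 5S genes and 74 bp for all units without a tRNA gene. Those units could have 1 of their own kind as the neighbour, whereas another tRNA unit was not counted for the tRNA units. The medians are therefore not like for like. For the 159 tRNA genes inside no longer unit the median was 1013 bp to the nearest unit without a tRNA gene, and 884 bp to the nearest unit with any gene other than a tRNA. The start of a tRNA unit lay a median of 2247 bp from the nearest start of a unit with another gene, against 1375.5 bp among the 15724 units that name a gene other than a tRNA. Such a start was at most 1000 bp away for 73 of 236 tRNA units (30.9%), against 42.5% of those units. A divergent start on the other strand was that near for 28 tRNA units (11.9%), and the same share of other units is not given here. The nearest starts were 148 bp from Val-AAC-1-1, 155 bp from Val-CAC-2-1, 157 bp from His-GTG-2-1Psi and 180 bp from Glu-CTC-3-7. In total, 75 units longer than the tRNA gene shared their bases with a tRNA gene on either strand.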

How the data were processed

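The analysis used the authors' deposited annotation of transcription units in dm6, which was written with rtracklayer 1.48.0 per the file header and marks its units as merged from a database release. Its values are coordinates, counted from 1, with strand and gene symbols. The submitters' processing notes name cutadapt 2.8, STAR 2.7.4a and SAMtools 1.20, without a role for this file. Libraries were grouped by title, but no library value was analysed here, so depth is unknown and no test or RNAi comparison was made.

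A tRNA gene with its own unit was placed by that unit, and the 61 that share a unit were placed by the RefSeq gene table (Release 6). Clusters joined genes at most 5000 bp apart, and an overlap was at least 1 base. Intervals of shares are exact binomial ones, and that of the median gap is from order statistics. Interval arithmetic was checked on 150 simulated intervals, with 0 mismatches. Python 3.11.15, pandas 2.3.3 and SciPy 1.17.1 were used.

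The members, the lists and the rule for named genes (the clusters with most tRNA genes, ties included, the longest 6 units with another gene, the covering units with most tRNA genes, anticodons with 1 gene or all on X, iMet and SeC) were chosen with earlier results of these data known. Other cluster distances, gene counts, overlap rules and comparison units were tried. No sequence is given here.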

Additional observations from a re-analysis of the deposited data

How the results depend on the processing

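Requiring 3 genes for a cluster left 141 clustered genes in 30 clusters, against 219 in 69. Cluster distances of 1000, 2000, 10000 and 20000 bp gave 192, 205, 231 and 236 clustered genes. The most genes in 1 cluster were 7, 8, 15 and 19, against 11 at 5000 bp, so cluster size depends on the distance. Joining only genes on the same strand left 155 clustered genes in 52 clusters, with 7 genes in the largest. Using the span of the unit gave 231 in 67 clusters, with 18 in the largest. Over all neighbouring pairs, near or far, 49.0% shared an isotype. Counting units in place of genes, 15.4% of units with a tRNA gene named another gene, against 20.5% of genes. The overlap share of tRNA units exceeded that of other units by 9.93 percentage points. Against single-gene units of at most 200 bp, 5S genes included, that difference was 15.6 points. Other differences were chosen after seeing the data. For units lying whole inside, against all other units, the difference was 21.9 points. Against short units without 5S genes it was 1.73 points for any overlap and 2.55 points whole inside. The median gap of 850 bp was 4022.5 bp on the same strand, and 268 bp when units with a tRNA gene and another gene counted as neighbours, also chosen after seeing the data.

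The list is 1 annotation with no replicate, so leaving out a library was not possible and no precision from depth applies. No paired analysis was possible because no value of any library was analysed here. A merged unit need not end where a named gene ends, and positions inside units rest on the RefSeq table.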
